A study of Mus musculus with 4 samples.

Results

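The glutathione synthesis and peroxidase genes described here are *Gclc*, *Gclm*, *Gss*, *Gsr*, *Gpx1*, *Gpx3*, *Gpx4*, *Gstm1*, *Gstp1* and *Ggt5*, which make, recycle, use or break down glutathione. They were picked by name for these roles, were all found, and make up 10 of the 41214 genes in the count table. RNA-seq of unstimulated B220+ splenocytes, with 2 libraries from MIZ-1 WT and 2 from MIZ-1 △POZ animals as biological replicates, addressed how gene expression in B cells changes when the transcription factor MIZ-1 loses its POZ domain, which mediates contacts with other proteins. In MIZ-1 △POZ mice (*MB1-Cre x Miz-1 floxPOZ*), Cre is expressed from the B cell gene *Cd79a*, also known as Mb1, so that the POZ exons are removed in B cells. MIZ-1 WT mice were labelled wild type, and whether they carried Cre or floxed alleles is not given in the sources used here. All mouse lines were on a C57BL/6 background, and animals in the study were between 40 and 70 days old. According to the study's methods, B220 selection retained the cells that held a biotin-coupled B220 antibody on magnetic beads, after lysis of red cells, so other splenocytes can remain in the libraries.

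Glutathione is a small peptide of glutamate, cysteine and glycine and the main soluble thiol of animal cells. Glutamate-cysteine ligase joins glutamate to cysteine in the step that limits the rate, and glutathione synthetase then adds glycine. Glutathione peroxidases use it to reduce hydrogen peroxide and lipid hydroperoxides, glutathione reductase restores the oxidised form with NADPH, and glutathione S-transferases couple it to reactive compounds. In the spleen, marginal zone B cells need the lipid peroxidase GPX4 while follicular B cells can do without it, and red pulp macrophages break down heme and iron from aged red cells and hold a large antioxidant system of their own.

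The depth of the 4 libraries was similar. Reads assigned to genes numbered 44452007 in MIZ-1 WT replicate 1, 43026814 in MIZ-1 WT replicate 2, 46387209 in MIZ-1 △POZ replicate 1 and 43214303 in MIZ-1 △POZ replicate 2. Reads outside annotated genes took 27.2% and 25.5% of the table total, summary lines included, for MIZ-1 WT, compared with 21.6% and 21.1% for MIZ-1 △POZ, so this share was lower in both MIZ-1 △POZ libraries, and its part in the results was not tested. Levels are given as CPM, which are counts scaled to a common library size with TMM factors. Levels of different genes are compared as RPKM, which is the same CPM divided by the merged exon length in kilobases.

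The labels were checked with genes whose level should follow genotype. *Zbtb17*, which encodes MIZ-1, had 47.8 and 46.3 CPM in MIZ-1 WT, compared with 37.3 and 38.0 CPM in MIZ-1 △POZ. Both MIZ-1 △POZ values were lower (log2 fold change -0.32, standard error 0.06, edgeR adjusted p = 0.00857, and not past 0.05 without MIZ-1 WT replicate 1), but counts over the whole gene do not separate the POZ exons from the rest. *Cd79a*, the gene that carries Cre, had 336 and 311 CPM in MIZ-1 WT and 103 and 135 CPM in MIZ-1 △POZ. All pan-B cell genes were abundant in each library, and *Cd79b* stood at 1433 RPKM in MIZ-1 WT and 1224 RPKM in MIZ-1 △POZ.

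The libraries also differed in sex-linked genes, and this touches each result below. *Xist*, which is transcribed from the inactive X chromosome of females, had 49 and 60 counts in MIZ-1 WT and 38145 and 40838 counts in MIZ-1 △POZ. The Y-linked gene *Ddx3y* had 363 and 354 CPM in MIZ-1 WT against 14.3 and 14.2 CPM in MIZ-1 △POZ, and *Eif2s3y*, *Kdm5d* and *Uty* showed the same order. None of these genes was at 0 in any library, so Y-linked reads remained in MIZ-1 △POZ, and their source was not tested. Genotype and sex cannot be told apart in these 4 libraries.

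The main findings for the 10 genes were these. *Gsr*, *Gclm*, *Gstp1* and *Ggt5* were higher in MIZ-1 △POZ, by 1.46-fold to 2.51-fold, and none of the 10 genes was called lower. Of all tested genes 21.1% were called higher and 18.9% lower, and without MIZ-1 WT replicate 1 only the *Gsr* call was kept. The 2 most abundant genes, *Gpx1* and *Gpx4*, and the catalytic subunit gene *Gclc* had nearly the same level in both genotypes. The called members were 1 gene each for the subunit that tunes synthesis, recycling, conjugation and breakdown. None was a peroxidase gene, and *Gpx3* had too few counts to size a difference.

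Synthesis genes differed among themselves. *Gclc* (ENSMUSG00000032350, chr9:77754535-77794485 on GRCm38, as all gene positions) encodes the catalytic subunit of glutamate-cysteine ligase. It had 51.1 and 53.6 CPM in MIZ-1 WT and 57.4 and 51.1 CPM in MIZ-1 △POZ. The genotypes overlapped, with MIZ-1 △POZ replicate 1 highest and MIZ-1 △POZ replicate 2 level with the lowest MIZ-1 WT library. The log2 fold change was 0.05 (standard error 0.07, 95% confidence interval -0.13 to 0.23, edgeR adjusted p = 0.606), so a rise of more than 0.23 lay outside the interval. Its sign turned without MIZ-1 △POZ replicate 1 (-0.0324). *Gclm* (ENSMUSG00000028124, chr3:122245557-122270732) encodes the modifier subunit, which raises the efficiency of the catalytic subunit. It had 6.72 and 7.04 CPM in MIZ-1 WT and 13.4 and 11.01 CPM in MIZ-1 △POZ. Both MIZ-1 △POZ libraries lay well above both MIZ-1 WT libraries, and MIZ-1 △POZ replicate 1 was the highest. The mean moved from 6.88 ± 0.230 CPM (SD, n = 2) for MIZ-1 WT to 12.2 ± 1.68 CPM (SD, n = 2) for MIZ-1 △POZ. This gave a log2 fold change of 0.83 (standard error 0.13, edgeR adjusted p = 0.00631). Without MIZ-1 WT replicate 1 the adjusted p was 0.0554, within a range of 7.71e-05 to 0.0554 over all alternatives. *Gss* (ENSMUSG00000027610, chr2:155563181-155592810) encodes glutathione synthetase. It had 10.5 and 10.2 CPM in MIZ-1 WT and 12.3 and 12.1 CPM in MIZ-1 △POZ. Both MIZ-1 △POZ libraries were slightly above both MIZ-1 WT libraries, with a log2 fold change of 0.24 (standard error 0.09) that missed the threshold at an edgeR adjusted p of 0.0789. *Gclm* shares 296 exon bases with *Gm17494* on the opposite strand and 244 with *Gm6061* on its own strand, which had at most 1 and 2 counts in a library. *Gss* shares 322 and 385 exon bases with *Gssos1* and *Gssos2*, which had 0 counts, and 395 with *Acss2* on the opposite strand, and *Acss2* itself had 14.1, 7.49, 14.4 and 16.7 CPM in MIZ-1 WT replicates 1 and 2 and MIZ-1 △POZ replicates 1 and 2. The strand setting of the counting is not given in the sources used here, so the small *Gss* difference is uncertain.

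Recycling showed the largest called difference among the 10 genes. *Gsr* (ENSMUSG00000031584, chr8:33652523-33698163) encodes glutathione reductase. It had 440 and 420 counts in MIZ-1 WT and 1326 and 989 counts in MIZ-1 △POZ, or 10.1 and 9.99 CPM against 27.9 and 22.5 CPM. The MIZ-1 WT replicates were nearly identical, and both MIZ-1 △POZ replicates were far above them. The mean moved from 10.04 ± 0.0663 CPM (SD, n = 2) for MIZ-1 WT to 25.2 ± 3.77 CPM (SD, n = 2) for MIZ-1 △POZ. On the log2 scale *Gsr* rose by 1.33 (standard error 0.12, 95% confidence interval 1.03 to 1.62, edgeR adjusted p = 0.00157). *Gsr* was the only member called in every alternative that tested it, leaving out each library included (it was below the mean of 30 RPM), with log2 fold changes between 1.17 and 1.48.

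The peroxidase genes were not called. *Gpx1* (ENSMUSG00000063856, chr9:108338903-108340343) encodes the peroxidase of the cytosol and mitochondria that acts on hydrogen peroxide. It had 236 and 233 CPM in MIZ-1 WT and 224 and 238 CPM in MIZ-1 △POZ. The MIZ-1 △POZ libraries bracketed the MIZ-1 WT libraries, and the interval of the log2 fold change ran from -0.14 to 0.10 around -0.02 (edgeR adjusted p = 0.725). *Gpx4* (ENSMUSG00000075706, chr10:80047166-80056439) encodes the peroxidase of membrane lipids. Its values were 49.5 and 49.5 CPM in MIZ-1 WT and 49.1 and 46.8 CPM in MIZ-1 △POZ. MIZ-1 △POZ replicate 1 lay close to MIZ-1 WT and MIZ-1 △POZ replicate 2 lay lowest, and the log2 fold change was -0.04 (95% confidence interval -0.18 to 0.09, edgeR adjusted p = 0.561). The sign of the *Gpx1* and *Gpx4* differences turned, to 0.0525 and 0.0324, when only genes with a mean of at least 30 RPM entered the normalization. That setting raised the log2 fold changes of all genes alike, by a median of 0.0762, so both genes kept their place relative to the others. The sign also turned for *Gpx1* without MIZ-1 △POZ replicate 1 (0.0185), while *Gpx4* was at 0.00020 without MIZ-1 △POZ replicate 2. *Gpx3* (ENSMUSG00000018339, chr11:54902453-54910377) encodes a secreted peroxidase of blood plasma that is made mostly in the kidney. It had 3 and 5 counts in MIZ-1 WT and 10 and 10 counts in MIZ-1 △POZ. These counts are too few to size a difference, and *Gpx3* entered the test only because both MIZ-1 △POZ libraries reached the minimum of 10 counts. Its log2 fold change of 1.20 had an interval from -0.12 to 2.53 (edgeR adjusted p = 0.126).

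Of the transferase genes, *Gstp1* was called and *Gstm1* was not. *Gstp1* (ENSMUSG00000060803, chr19:4035407-4037985) encodes the pi class enzyme. It had 13.4 and 14.2 CPM in MIZ-1 WT and 21.2 and 19.0 CPM in MIZ-1 △POZ. The groups did not overlap, and the gap between genotypes was wider than that between replicates. The log2 fold change was 0.55 (standard error 0.09, edgeR adjusted p = 0.00753). Leaving out MIZ-1 WT replicate 1 brought the adjusted p to 0.0642, within a range of 0.000542 to 0.0642 over all alternatives. *Gstm1* (ENSMUSG00000058135, chr3:108012255-108017973) encodes a mu class enzyme. It had 69 and 82 counts in MIZ-1 WT and 104 and 77 counts in MIZ-1 △POZ. The groups overlapped, since MIZ-1 △POZ replicate 2 lay between the MIZ-1 WT replicates once scaled to CPM. The log2 fold change of 0.16 had an interval from -0.39 to 0.71 (edgeR adjusted p = 0.602), and the sign turned without MIZ-1 △POZ replicate 1 (-0.00705).

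Related copies limit how these transferase counts can be read. Of the 50-base windows of the longest protein-coding *Gstp1* transcript, 62.3% also occur in *Gstp2* or *Gstp-ps*. For *Gstm1* the share was 23.1%, mostly with *Gstm2-ps1* and *Gstm3*, and for *Gpx4* it was 61.7%, with *Gpx4-ps2*. Reads that align to more than 1 place were kept out of the gene counts, so the levels of these 3 genes are likely too low. *Gclm* shared 0.776% of its windows with other genes, and *Gclc*, *Gss*, *Gsr*, *Gpx1*, *Gpx3* and *Ggt5* shared none. *Gstp2* had 16, 22, 26 and 18 counts and *Gstp3* had 2, 10, 15 and 15 counts in MIZ-1 WT replicates 1 and 2 and MIZ-1 △POZ replicates 1 and 2. Both were far below *Gstp1*, and neither was called (edgeR adjusted p = 0.828 for *Gstp2* and 0.195 for *Gstp3*). Of the *Gstp2* windows 72.6% also occur in *Gstp1* or *Gstp-ps*, so the *Gstp2* counts are likely too low as well. In the mu class, *Gstm4* had 66, 93, 166 and 141 counts and *Gstm5* had 3, 4, 18 and 13 counts, in the same order of libraries. Both were called higher, with log2 fold changes of 0.85 (edgeR adjusted p = 0.0330) and 2.01 (edgeR adjusted p = 0.0243), while *Gstm2* and *Gstm3* had at most 2 counts in any library. The calls of *Gstm4* and *Gstm5* were lost without MIZ-1 WT replicate 1 or MIZ-1 △POZ replicate 1. That of *Gstm5* was also lost without MIZ-1 WT replicate 2, with a replicate block and in the DESeq2 Wald test, and the gene passed the count minimum through MIZ-1 △POZ alone.

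Breakdown was represented by *Ggt5* (ENSMUSG00000006344, chr10:75589340-75617200), a gamma-glutamyl transferase that cleaves glutathione outside the cell and turns leukotriene C4 into D4. It had 158 and 128 counts in MIZ-1 WT and 352 and 206 counts in MIZ-1 △POZ, or 3.62 and 3.05 CPM against 7.40 and 4.69 CPM. Both MIZ-1 △POZ libraries were above both MIZ-1 WT libraries, but the MIZ-1 △POZ replicates stood farther apart than MIZ-1 △POZ replicate 2 stood from MIZ-1 WT. The log2 fold change was 0.86 (standard error 0.25, edgeR adjusted p = 0.0400). The call was lost without MIZ-1 △POZ replicate 1 (log2 fold change 0.49, adjusted p = 0.119), without MIZ-1 WT replicate 1 (adjusted p = 0.114) and without MIZ-1 WT replicate 2 (adjusted p = 0.178). Over all alternatives its adjusted p ranged from 0.00379 to 0.178.

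In all, 4 of the 10 genes were called higher at an adjusted p under 0.05, where 21.1% of the 14554 tested genes were, and 0 were called lower, where 18.9% were. At an unadjusted p under 0.05, edgeR gave 5 higher and 0 lower, where 26.0% and 24.3% of tested genes were. The Wald test of DESeq2 with adjustment gave 4 higher and 0 lower, where 18.3% and 16.5% were. Without MIZ-1 WT replicate 1 the members called higher came to 1, *Gsr*, and 2204 genes were called in the whole table. With a log2 fold change of at least 0.6 and an unadjusted p under 0.05, 3 of the 10 were higher, where 15.0% of tested genes were. These were *Gsr*, *Gclm* and *Ggt5*, since *Gstp1* stayed under 0.6. In 6 of the 10 genes both MIZ-1 △POZ libraries were above both MIZ-1 WT libraries, where 37.2% of tested genes were, and leaving *Gpx3* aside it was 5 of 9. The median log2 fold change was 0.39 over the 10 genes and 0.24 over the 9 that passed the count minimum in MIZ-1 WT too, beside -0.01 over all tested genes. Calls were common throughout the table, with 5822 of 14554 genes past the threshold.

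**Figure D1:**
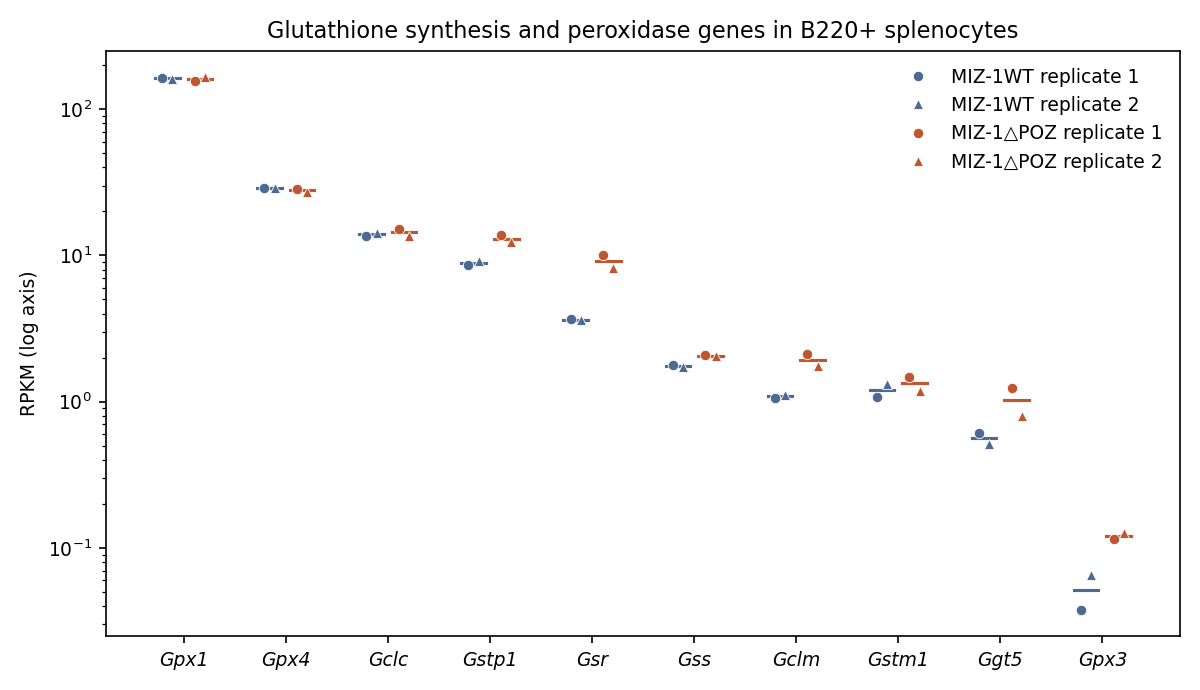
Level of each of the 10 genes in each library, as RPKM on a log axis, with genes ordered by their mean. Circles are replicate 1, triangles are replicate 2 and short lines are genotype means. *Gpx1* lies near 160 RPKM in both genotypes, while *Gsr* moves from 3.65 to 9.15 RPKM.

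The levels of the 10 genes spanned a wide range. In MIZ-1 WT, *Gpx1* stood at 163 ± 1.62 RPKM (SD, n = 2), followed by *Gpx4* at 28.7, *Gclc* at 13.9, *Gstp1* at 8.92, *Gsr* at 3.65, *Gss* at 1.75, *Gstm1* at 1.199, *Gclm* at 1.09, *Ggt5* at 0.563 and *Gpx3* at 0.0518 RPKM. Neighbours in this order were separated in both libraries, except *Gstm1* and *Gclm*, which overlapped. The levels of *Gpx4*, *Gstp1* and *Gstm1* are likely too low, as given above, so their places could be higher. In MIZ-1 △POZ the first 6 places held the same genes, but *Gstp1* rose to 13.0 RPKM and overlapped *Gclc* at 14.4 RPKM. *Gsr* rose to 9.15 RPKM. *Gclm* at 1.94 RPKM overlapped *Gss* at 2.06 RPKM, and *Ggt5* at 1.02 RPKM overlapped *Gstm1* at 1.34 RPKM. The message for the modifier subunit was thus far less abundant per length than that for the catalytic subunit in both genotypes. Merged exon lengths reach 6291 bases for *Gclm*, with a long 3′ end, so RPKM of genes with long untranslated exons depends on how much of them is transcribed.

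Markers of some other spleen cells also differed between genotypes. The list of red pulp macrophage markers was called higher in MIZ-1 △POZ for 18 of 18 genes, where 21.1% of all tested genes were. The list had a median difference of 1.98 on the log2 scale. Its summed level was 1104 and 1422 CPM in MIZ-1 WT and 5905 and 3754 CPM in MIZ-1 △POZ, and no marker was at 0 in any library. Thus the list was highest in MIZ-1 △POZ replicate 1, lower in MIZ-1 △POZ replicate 2 and lowest in MIZ-1 WT replicate 1. By CPM, the scale used here to name the most abundant gene of each marker list, *Vcam1* led, with 265 and 345 CPM in MIZ-1 WT and 1515 and 899 CPM in MIZ-1 △POZ. The iron exporter gene *Slc40a1* and the mannose receptor gene *Mrc1* followed, with log2 fold changes of 2.54 (edgeR adjusted p = 0.00260) and 2.02 (edgeR adjusted p = 0.00178). The largest difference of the list was that of *Siglec1* at 3.50 and the smallest that of the protease gene *Lgmn* at 1.01. In bulk RNA a change in the number of cells of a type and a change in RNA per cell cannot be told apart. The part of these cells in the higher *Gsr*, *Gclm*, *Gstp1* and *Ggt5* levels was not tested.

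Pan-B cell genes moved the other way. Of 12 genes, 10 were lower and 0 higher by edgeR, where 18.9% and 21.1% of all tested genes were; the median difference was -0.28 on the log2 scale, and summed levels were 12034 and 12323 CPM for MIZ-1 WT against 9792 and 10274 CPM for MIZ-1 △POZ. No pan-B cell gene was at 0 in any library, and their part in the results was not tested. *Ms4a1* and *Cd79b* were the most abundant, with log2 fold changes of -0.23 and -0.23, and both calls were lost without MIZ-1 WT replicate 1 or MIZ-1 WT replicate 2. The *Ms4a1* and *Cd79b* calls were also lost without MIZ-1 △POZ replicate 1, and the *Ms4a1* call without MIZ-1 △POZ replicate 2. *Cd79a* fell by 1.44 on the log2 scale and *Blk* was not called (-0.10, edgeR adjusted p = 0.157). Levels per length can be set beside these markers. *Vcam1* and *Mrc1* stood at 34.4 and 18.1 RPKM for MIZ-1 WT and at 136 and 73.2 RPKM for MIZ-1 △POZ. The whole macrophage list ran from 0.150 to 72.8 RPKM for MIZ-1 WT, a range that also held the MIZ-1 WT levels of all members but *Gpx1* and *Gpx3*. *Gpx1*, *Gpx4* and *Gclc* kept a level near that of MIZ-1 WT while the macrophage list rose.

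The gap between replicates can be set beside the genotype difference. The macrophage markers had a median log2 gap of 0.67 between MIZ-1 △POZ replicates 1 and 2 and of -0.38 between MIZ-1 WT replicates 1 and 2. Over all tested genes these median gaps were 0.00 and 0.00 after rounding. The MIZ-1 △POZ gap was 0.65 for *Ggt5*, 0.31 for *Gsr*, 0.31 for *Gstm1*, 0.28 for *Gclm*, 0.17 for *Gclc*, 0.16 for *Gstp1*, 0.07 for *Gpx4*, 0.02 for *Gss*, -0.08 for *Gpx1* and -0.10 for *Gpx3*. All 4 called members were thus higher in MIZ-1 △POZ replicate 1, as the macrophage markers were. The uncalled *Gstm1*, *Gclc*, *Gpx4* and *Gss* were higher there too, and *Ggt5* came closest to the macrophage gap. In MIZ-1 WT, where the macrophage list was higher in replicate 2, *Ggt5* went the other way with a gap of 0.25, *Gsr* had 0.01, *Gclm* had -0.07 and *Gstp1* had -0.09.

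**Figure D2:**
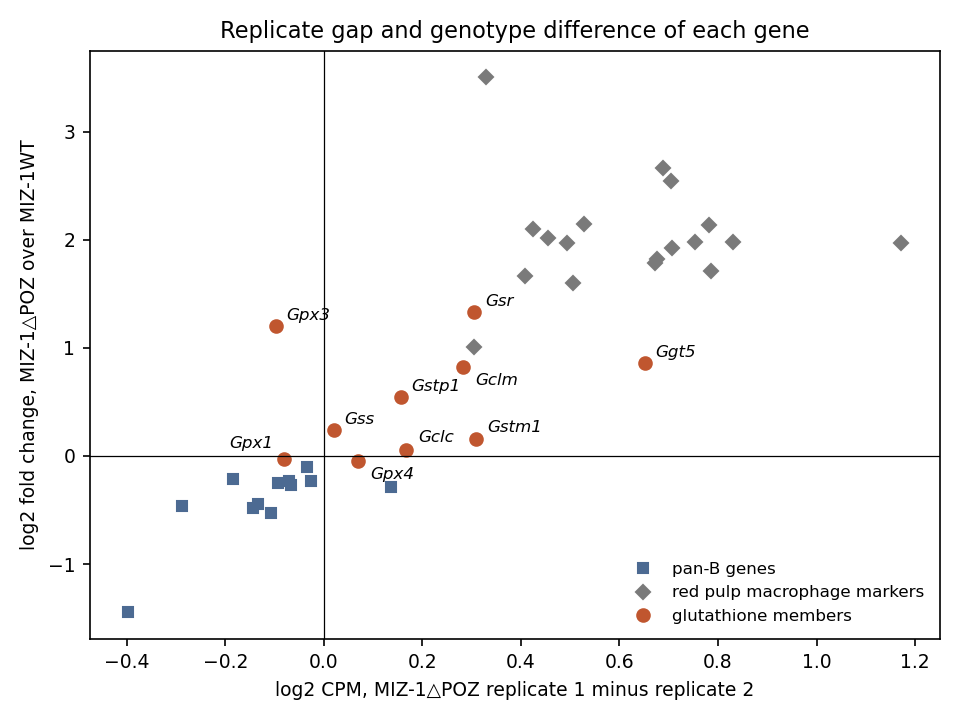
Each point is a gene, with its log2 CPM in MIZ-1 △POZ replicate 1 minus replicate 2 on the horizontal axis and its log2 fold change between genotypes on the vertical axis. Macrophage markers lie at the upper right, pan-B cell genes mostly at the lower left, and *Gsr*, *Gclm*, *Gstp1* and *Ggt5* have positive values on both axes.

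Other marker lists gave a mixed picture, and their called counts can be set beside 21.1% higher and 18.9% lower over all tested genes. Marginal zone B cell genes were higher in 6 of 6, with summed levels of 2654 and 2680 CPM in MIZ-1 WT and 3303 and 3562 CPM in MIZ-1 △POZ and *Cr2* as the most abundant gene. Follicular B cell genes were lower in 3 of 5, with 1731 and 1849 CPM against 1416 and 1522 CPM. Plasma cell genes were higher in 5 of 6, with 734 and 1059 CPM in MIZ-1 WT and 2477 and 2311 CPM in MIZ-1 △POZ, most of it *Jchain*. The marginal zone and plasma cell lists were thus above MIZ-1 WT in both MIZ-1 △POZ libraries, and the follicular list below. Monocyte genes were higher in 5 of 7, with 110 and 99.6 CPM against 211 and 335 CPM and *Lyz2* on top, so here MIZ-1 △POZ replicate 2 was the highest library. Conventional dendritic cell genes were higher in 6 of 8, with 91.7 and 108 CPM against 376 and 280 CPM, mostly from *Sirpa*, which macrophages express too, and *Clec4a4* passed the count minimum through MIZ-1 △POZ alone, leaving 5 of 7 without it. No gene of these 5 lists was at 0 in any library, and their part in the results was not tested.

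The remaining lists were low or level between genotypes. Over all tested genes, beside which their called counts can be set, 21.1% were higher and 18.9% lower. T cell genes summed to between 64.7 and 85.3 CPM per library with *Lck* most abundant and 1 of 11 called higher, and NK cell genes to 48.3 and 50.0 CPM in MIZ-1 WT and 50.4 and 54.8 CPM in MIZ-1 △POZ with *Gzma* on top and 1 of 6 called higher. Plasmacytoid dendritic cell genes summed to between 266 and 291 CPM, mostly *Tcf4*, with 1 of 7 called higher. Erythroid genes had 50.6 and 63.0 CPM in MIZ-1 WT and 43.3 and 120 CPM in MIZ-1 △POZ, mostly *Hbb-bs*, with 1 of 9 called higher, so MIZ-1 △POZ replicate 2 held the most of them. Of these 4 lists, the summed levels overlapped between genotypes for T cells, plasmacytoid dendritic cells and erythroid cells, while NK cell genes were slightly higher in both MIZ-1 △POZ libraries. Neutrophil genes summed to between 4.83 and 17.9 CPM with *S100a9* most abundant. Of 7 tested genes 2 were called higher, *Ltf* and *Retnlg*, both tested only through MIZ-1 △POZ counts, and *Elane*, *Mpo* and *Ly6g* had at most 4 counts, with *Elane* and *Ly6g* at 0 in some libraries. Megakaryocyte genes summed to about 2 CPM in each library, mostly *Itga2b*, with *Gp1ba* and *Gp9* at 0 in 1 library each and 1 of 3 tested genes, *Pf4*, called higher through MIZ-1 △POZ counts alone, and stroma genes to under 1 CPM, with 1 tested gene, *Cxcl12*, called higher through MIZ-1 △POZ counts alone. Endothelial genes were mostly *Pecam1*, which B cells also express, at 323 and 328 CPM for the list in MIZ-1 WT and 311 and 307 CPM in MIZ-1 △POZ, with 2 called higher and 1 lower of 5 and *Tek* at 0 in both MIZ-1 WT libraries. The part of these lists in the results was not tested.

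The other genes of the glutathione pathway were read from the same fit. Of 72 listed genes 51 were tested, of which 28 were called higher and 1 lower, where 21.1% and 18.9% of all tested genes were. The median of the 51 genes was 0.56 on the log2 scale, beside -0.01 over all tested genes. Without *Gstm5*, tested through MIZ-1 △POZ counts alone, 27 of 50 were higher, with a median of 0.54. *Chac1*, which reached 10 counts in only 1 MIZ-1 WT library, stayed among the 27. The total of 29 called genes fell to 15 without MIZ-1 WT replicate 1, and to 10 among the fewer genes with a mean of at least 30 RPM. Among soluble glutathione S-transferases 8 of 13 tested genes were higher and 0 lower by edgeR, where 21.1% and 18.9% of all tested genes were, with a median of 1.05 (7 of 12 and 1.01 without *Gstm5*). *Gstt1*, a theta class enzyme, had 11 and 21 counts in MIZ-1 WT and 195 and 118 counts in MIZ-1 △POZ. Its libraries were widely separated, with a log2 fold change of 3.17 (edgeR adjusted p = 0.00298). *Gsto1*, an omega class enzyme, had 7.04 and 7.52 CPM in MIZ-1 WT and 16.5 and 15.6 CPM in MIZ-1 △POZ. *Gstt2* had 12.8 and 13.1 CPM against 24.0 and 27.0 CPM, and *Hpgds*, the prostaglandin D synthase of blood cells, had 17.1 and 19.3 CPM against 42.1 and 32.8 CPM. In each of these 3 genes the MIZ-1 △POZ libraries lay far above the MIZ-1 WT libraries, with log2 fold changes of 1.14, 0.98 and 1.05. In the list of membrane transferases and related genes, 2 of 4 tested genes were higher and 0 were lower. These were the transferase gene *Mgst1* (0.99, edgeR adjusted p = 0.00642) and the related gene *Alox5ap* (0.72, edgeR adjusted p = 0.00890).

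Breakdown and supply were covered by further lists. Of 9 tested breakdown genes 4 were higher and 0 lower, where 21.1% and 18.9% of all tested genes were. *Chac1*, which cleaves glutathione inside the cell, had 4 and 12 counts in MIZ-1 WT and 49 and 37 counts in MIZ-1 △POZ. Its MIZ-1 WT counts alone would not have met the count minimum, so it was tested because of its MIZ-1 △POZ counts. *Oplah*, which returns 5-oxoproline to glutamate, had 65 and 63 counts in MIZ-1 WT and 298 and 173 counts in MIZ-1 △POZ. Both were higher in the MIZ-1 △POZ libraries, with log2 fold changes of 2.31 (edgeR adjusted p = 0.0147) and 1.77 (edgeR adjusted p = 0.00555). The *Chac1* value moved to 1.71 without MIZ-1 WT replicate 1, with its call lost, and to 3.32 without MIZ-1 WT replicate 2. The peptidase genes *Lap3* and *Cndp2* rose by 0.92 and 0.64. Among 11 tested genes for precursor supply and transport, 6 were higher and 1 lower, beside the same 21.1% and 18.9% over all tested genes. The single lower gene was *Slc1a5*, a glutamine and neutral amino acid transporter, with 276 and 264 CPM in MIZ-1 WT and 152 and 150 CPM in MIZ-1 △POZ (log2 fold change -0.84, edgeR adjusted p = 0.000739). It was also the most abundant gene of its list per length, and its replicates were close within each genotype. Among those that rose were the mitochondrial glutathione carrier gene *Slc25a39* (0.60), the export pump gene *Abcc1* (0.53), *Slc1a4* (1.40) and *Slc3a2* (0.26). *Slc7a11*, the cystine transporter that pairs with the *Slc3a2* product, had 13 and 17 counts in MIZ-1 WT and 38 and 22 counts in MIZ-1 △POZ and was not called (edgeR adjusted p = 0.117); it was named after its values were seen.

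NADPH supply, on which glutathione reductase depends, showed 5 of 6 tested genes higher, where 21.1% of all tested genes were, and 0 lower, with a median of 0.51. *Idh2* was the most abundant per length over the 4 libraries, with 28.1 and 32.6 CPM in MIZ-1 WT and 51.7 and 46.0 CPM in MIZ-1 △POZ. *G6pdx*, which opens the pentose phosphate pathway, had 28.9 and 29.6 CPM against 40.9 and 37.2 CPM. Both rose in both MIZ-1 △POZ libraries, with log2 fold changes of 0.69 (edgeR adjusted p = 0.00470) and 0.42 (edgeR adjusted p = 0.00791), as did *H6pd* (0.44) and *Nnt* (0.58). Of 7 tested genes in the list of glutaredoxins, glyoxalases and related genes 2 were higher and 0 lower, where 21.1% and 18.9% of all tested genes were. The called genes were the glutaredoxin gene *Glrx* at 0.56 and the related gene *Esd* at 0.16. Of the other peroxidases only *Gpx7* had enough counts to be tested, with 35 and 40 counts in MIZ-1 WT and 78 and 92 counts in MIZ-1 △POZ (log2 fold change 1.09, edgeR adjusted p = 0.0189). The calls of *G6pdx*, *H6pd*, *Mgst1*, *Chac1*, *Slc3a2*, *Glrx*, *Esd* and *Gpx7* were lost without MIZ-1 WT replicate 1. Without MIZ-1 WT replicate 2, those of *Alox5ap*, *Slc3a2*, *Glrx*, *Esd* and *Gpx7* were lost. Without MIZ-1 △POZ replicate 1 that of *Esd* was lost, and without MIZ-1 △POZ replicate 2 that of *Gpx7*. *Esd* also lost its call in the DESeq2 Wald test, with a replicate block and with no filter on counts.

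**Figure D3:**
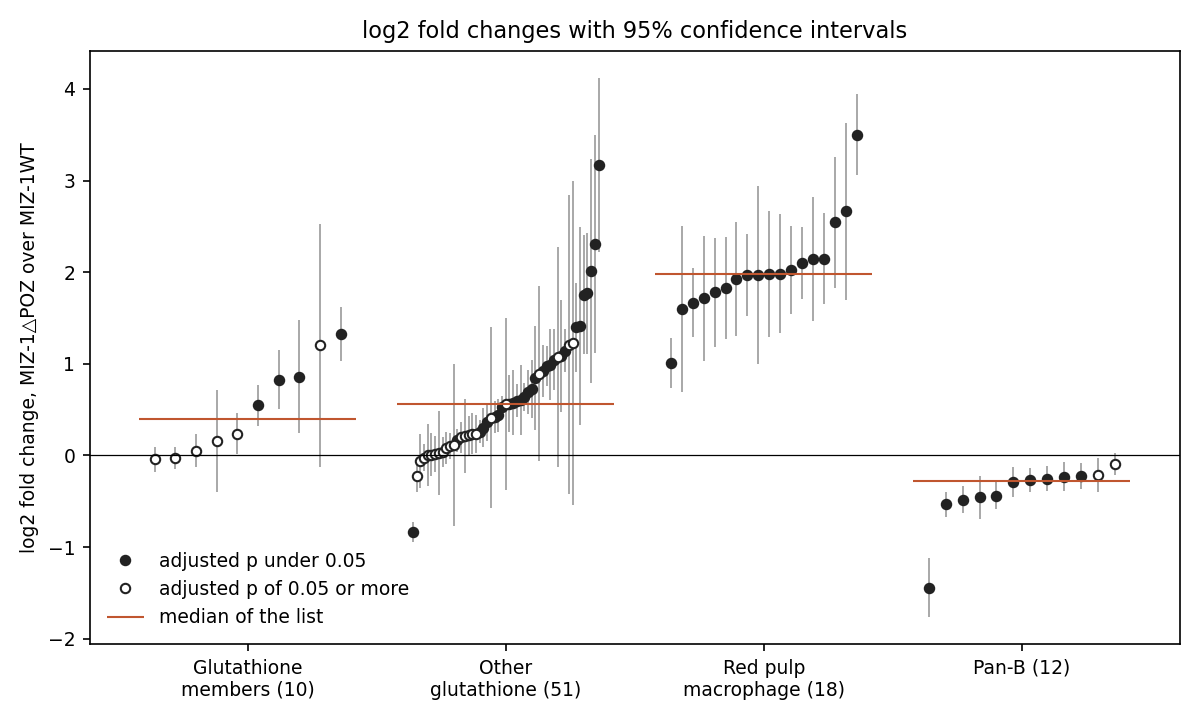
log2 fold changes of MIZ-1 △POZ over MIZ-1 WT with 95% confidence intervals for the 10 members, 51 tested other glutathione genes, 18 red pulp macrophage markers and 12 pan-B cell genes, sorted within each list. Filled points have an adjusted p under 0.05 and lines are list medians, at 0.39, 0.56, 1.98 and -0.28.

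Antioxidant and selenoprotein genes outside the pathway were read in the same way. Of 39 tested genes 13 were higher and 3 lower, where 21.1% and 18.9% of all tested genes were, with a median of 0.08 on the log2 scale. Without *Nqo1*, tested through MIZ-1 △POZ counts alone, 12 of 38 were higher. The 16 called genes became 10 without MIZ-1 WT replicate 1 and 10 without MIZ-1 WT replicate 2. NRF2, encoded by *Nfe2l2*, is the factor that switches on many glutathione genes under oxidative stress. *Nfe2l2* itself had 55.0 and 53.3 CPM in MIZ-1 WT and 51.9 and 55.0 CPM in MIZ-1 △POZ, so its message overlapped between genotypes; it was named for its role after its values were seen. Of 15 genes listed as its targets and regulators 5 were higher and 1 lower, where 21.1% and 18.9% of all tested genes were. Without *Nqo1*, 4 of 14 were higher. *Hmox1*, which breaks down heme and is abundant in red pulp macrophages, had 39.1 and 67.2 CPM in MIZ-1 WT and 337 and 221 CPM in MIZ-1 △POZ. Its order of libraries was that of the macrophage list, with a log2 fold change of 2.39 (edgeR adjusted p = 0.00346). The ferritin light chain gene *Ftl1* had 262 and 269 CPM against 602 and 464 CPM, and *Txnrd1* had 56.9 and 48.6 CPM against 83.2 and 73.4 CPM. *Nqo1* had 7 and 3 counts in MIZ-1 WT and 22 and 27 counts in MIZ-1 △POZ, and it passed the count minimum through MIZ-1 △POZ alone. Its log2 fold change of 2.18 moved to 2.86 without MIZ-1 WT replicate 1. *Bach2*, a repressor that is high in B cells, was lower, at 81.4 and 80.9 CPM against 48.4 and 65.2 CPM (log2 fold change -0.52, edgeR adjusted p = 0.0295).

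The thioredoxin and peroxiredoxin list covers the parallel system that also reduces peroxides. Of its 12 genes 6 were higher and 1 lower, where 21.1% and 18.9% of all tested genes were. *Txn1* had 49.1 and 48.7 CPM in MIZ-1 WT and 104 and 92.7 CPM in MIZ-1 △POZ, and *Prdx4* had 14.0 and 17.99 CPM against 40.5 and 35.3 CPM. Both were clearly separated, with log2 fold changes of 1.01 (edgeR adjusted p = 0.000867) and 1.25 (edgeR adjusted p = 0.00235), and *Prdx1* and *Prdx6* rose by 0.59 and 0.41. *Txnip*, which binds and blocks thioredoxin, was the most abundant of the list per length and fell by 0.29 on the log2 scale. *Sod1* and *Sod2* rose by 0.50 and 0.24, and *Cat* at 0.16 was not called (edgeR adjusted p = 0.124). *Gpx1* and *Gpx4* need the selenoprotein machinery for their selenocysteine. Of its 10 listed genes 1 was higher and 1 lower, where 21.1% and 18.9% of all tested genes were. *Selenop*, the selenium carrier secreted by liver and macrophages, had 106 and 141 CPM in MIZ-1 WT and 334 and 273 CPM in MIZ-1 △POZ (log2 fold change 1.30, edgeR adjusted p = 0.00289). *Secisbp2*, which binds the element that directs selenocysteine insertion, had 76.4 and 75.3 CPM against 66.1 and 64.2 CPM (-0.22, edgeR adjusted p = 0.0186). The calls of *Bach2*, *Txnip* and *Secisbp2* were lost without MIZ-1 WT replicate 1, without MIZ-1 WT replicate 2 and with a filter at a mean of 30 RPM, where all genes shifted by 0.0762. The *Secisbp2* and *Sod2* calls were lost with a replicate block. That of *Sod2* was also lost without MIZ-1 WT replicate 1, MIZ-1 WT replicate 2 or MIZ-1 △POZ replicate 1, and that of *Nqo1* without MIZ-1 WT replicate 2 and in the DESeq2 Wald test.

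Promoter sequence was read because some members and pathway genes were higher together. RefSeq promoters on GRCm38.p6, from 250 bases before to 50 bases after the transcription start, were found for 7 of the 10 genes, and *Gclc*, *Gsr* and *Ggt5* had no entry. Both strands were searched for TGACNNNGC, the core of the antioxidant response element to which NRF2 binds with small MAF proteins. Of all 32851 promoters 12.4% held it, and of all 27025 genes 14.0% held it in at least 1 promoter. Of the 7 members only *Gclm* did, with 1 match that began 134 bases before the start, on the opposite strand. *Gstp1*, the other called member with an entry, had none in this window. The *Gclm* promoter is shown on the strand of the gene with the match in capitals.
Gclm promoter, chr3:122245307-122245606: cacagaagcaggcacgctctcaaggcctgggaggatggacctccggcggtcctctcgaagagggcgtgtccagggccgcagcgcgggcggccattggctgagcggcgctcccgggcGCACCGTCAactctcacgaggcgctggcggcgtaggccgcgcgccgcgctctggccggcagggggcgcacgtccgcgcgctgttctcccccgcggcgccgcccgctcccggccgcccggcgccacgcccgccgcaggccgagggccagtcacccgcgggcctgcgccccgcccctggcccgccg

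The same letters were present in the promoters of 12 of 61 other glutathione genes with an entry. Of these, 4 were among 21 genes called higher and 8 among 40 not called higher. They were also present for 9 of 36 antioxidant and selenoprotein genes, 4 among 11 called higher and 5 among 25 not called higher. A match is a description of sequence and not a measured binding site. The matches of the called genes are given with their neighbouring bases, turned so that each reads in the direction of the core, which is in capitals. *Slc25a40* and *Gstm5* carried it on the strand of the gene and the others on the opposite strand. *Slc25a40* and *Srxn1* were named here for holding a match, after values were seen.
Gclm, chr3:122245415-122245439: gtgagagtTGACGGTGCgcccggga
Slc25a40, chr5:8422829-8422853: ccggatgcTGACCACGCccccggcg
Gstm5, chr3:107895804-107895828: ccgcccacTGACCACGCggagggcg
Mgst1, chr6:138140463-138140487: ccgcctccTGACCGTGCcaagcccc
G6pdx, chrX:74428921-74428945: gtgtgcttTGACTGAGCtgacccgc
Srxn1, chr2:152105544-152105568: tctcactcTGACCTAGCtgcccact
Txnrd1, chr10:82859106-82859130: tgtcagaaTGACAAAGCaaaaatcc
Prdx1, chr4:116685458-116685482: acgggggaTGACTCAGCgctttccc
Sod1, chr16:90220698-90220722: cctgagtcTGACCACGCccaccttg
The distance of the match from the start ranged from 134 bases before it in *Gclm* to 28 bases after it in *Srxn1*.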

How the data were processed

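RNA was measured in 4 libraries of B220+ splenocytes, 2 per genotype, grouped by the genotype in the labels. The library kit kept strand and ribosomal RNA was depleted. The authors trimmed paired-end reads, aligned them to GRCm38 (mm10) with TopHat2 and deposited raw counts per Ensembl gene from HTSeq, neither normalized nor pooled. The submitters' processing notes give TopHat2 as 2.1.0, and the paper's methods name a different version. The strand setting and the Ensembl release are not given in the sources used here. Summary lines for reads outside genes (21.1% to 27.2%), ambiguous reads (0.281% to 0.302%) and reads without a unique alignment (42.8% to 44.1%) stayed out of library sizes and tests. Symbols came from GENCODE for 40340 of 41214 genes.

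A gene was tested if 2 or more libraries held 10 or more counts (14554 genes), with edgeR version 4.0.16 in R version 4.3.3, using TMM factors (0.977 to 1.03), its quasi-likelihood test and p-values adjusted by Benjamini and Hochberg over every tested gene, called under 0.05. Log2 CPM used a prior count of 2. Alternatives were DESeq2 size factors, DESeq2's own Wald test (version 1.42.0), testing without a count filter, a mean of at least 30 RPM, removal of 199 immunoglobulin genes, a replicate block and leaving out each library. The procedures were tested on simulated counts. The members and gene lists were chosen with earlier results of these data known. Genes named beside the 10 members were, per pathway list, up to 4 called genes of smallest p per direction and the most abundant per length, per marker list the most abundant genes and those with the extreme fold changes, the paralogs of *Gstm1* and *Gstp1*, and genes that check the labels. Some genes that meet the rule are given only in counts, and some marker genes are not reported here.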

Additional observations from a re-analysis of the deposited data

How the results depend on the processing

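Across alternatives, the 10 genes gave 93 log2 fold changes beside those of the report, of which 82 kept direction and side of the threshold and 5 lost the call with the same direction. The other 6 changed sign, all of genes that were not called, and 2 of these came with a shift of all genes. With only genes at a mean of at least 30 RPM, 6052 genes were tested, *Gclc*, *Gpx1* and *Gpx4* alone remained of the members, and *Gpx1* and *Gpx4* moved to 0.0525 and 0.0324, by the same amount as the median of all genes (0.0762). In that setting 2746 genes were called in the whole table, 10 other glutathione genes, 0 members, and 0 members with a log2 fold change of 0.6, since fewer genes were tested. Leaving out 1 library left a lone sample that was assumed to vary like the other genotype. The log2 fold changes then ranged from -0.0324 to 0.14 for *Gclc*, -0.0548 to 0.0185 for *Gpx1*, -0.0770 to 0.00020 for *Gpx4*, -0.00705 to 0.32 for *Gstm1* and -0.13 to 0.38 for *Gstp2*. Called genes ranged from 2204 to 5739 in the whole table, members called higher from 1 to 4, other glutathione genes from 15 to 30, antioxidant and selenoprotein genes from 10 to 18, and members past 0.6 with an unadjusted p under 0.05 from 2 to 4. Members called lower stayed at 0 in all settings.

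The 52 other named genes gave 499 values, of which 445 kept direction and side, 51 lost the call, 1 gained it (*Cat*, at 30 RPM, moving with that shift) and 2 changed sign, both of *Gstp2*. Without MIZ-1 WT replicate 1, 18 of them lost their call, and without MIZ-1 WT replicate 2, 14 did. DESeq2 size factors, removal of immunoglobulin genes and no count filter changed no member call. The labels name nothing that a replicate number shares, and the replicate gaps of the genotypes correlated at r = -0.07 over 14554 genes. With 1 gap per genotype this correlation cannot settle whether replicates were paired, so pairing is not known. With a replicate block 4732 genes were called, with 4 members higher and 0 lower, 26 other glutathione genes, 14 antioxidant and selenoprotein genes and 3 members past 0.6. Depth limits *Gpx3*, with at most 10 counts per library.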
